A study of Mus musculus with 6 samples.

Results

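Most mitochondrial proteins are made in the cytosol and must be imported, unfolded, through a pore of the outer membrane (the TOM complex) and then through inner membrane pores (the TIM22 and TIM23 complexes). A motor built around the chaperone Hspa9 pulls precursors into the matrix, peptidases cut off their targeting sequence, chaperonins fold them, and ATP-dependent proteases remove what fails to fold. Brown fat produces heat in its mitochondria, with which it is packed, and depends on this supply line. The genes described here are 45 members of that system, taken by symbol from a fixed list of translocases of both membranes, presequence peptidases, matrix chaperones and mitochondrial proteases. All 45 were found among the 24062 gene symbols of the count table, and all 45 passed the filter on low counts that left 13300 genes for testing.

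The libraries were made from brown adipose tissue of male C57BL/6 mice aged 12 weeks, 3 labelled FAM195A knockout and 3 labelled FAM195A heterozygous, so the mice set against the knockouts carry a disrupted copy too. The series names FAM195A a stress granule protein that binds RNA and that mice need for making heat in the cold. The labels state neither the kind of allele, nor the cells in which it is disrupted, nor the housing temperature. Knockout 1, 2 and 3 and heterozygous 1, 2 and 3 below are names for the 6 libraries.

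Reads counted in genes ran from 22418031 to 25084627 in the libraries labelled knockout and from 18781401 to 20471963 in those labelled heterozygous, which was 51.0% to 58.3% and 43.9% to 48.4% of the column totals. The targeted transcript, Fam195a, did not bear out the labels: it stood at 71.3 ± 18.0 CPM in the libraries labelled knockout and 80.8 ± 19.1 CPM in those labelled heterozygous (SD, n = 3 each; edgeR quasi-likelihood test, adjusted p = 0.896). Directions below are therefore those of the libraries labelled knockout relative to the libraries labelled heterozygous. CPM, the usual depth-scaled read count, was taken after TMM scaling of the library sizes. Markers of brown adipocytes were present in every library, with a summed level of 21514 to 26724 CPM in knockout-labelled and 21542 to 22435 CPM in heterozygous-labelled tissue. Of 15 such markers 1 passed, Elovl3, a fatty acid elongase gene, which rose by 1.03 on the log2 scale (adjusted p = 0.0418, edgeR). Over all genes tested 0.586% passed in either direction and 0.0526% rose. In 2 of the 15, Elovl3 and Cidea, all knockout-labelled libraries lay highest, as in 8.11% of all genes tested. The sum is carried by Fabp4, Ucp1 and Cidea, and for some markers knockout 3 and heterozygous 3, whose titles begin with RE, stood apart from the other 4 libraries. Ppargc1a, a coactivator of mitochondrial genes, had 64.2 CPM in knockout 3 and 87.4 CPM in heterozygous 3, against 259 to 494 CPM in the others. Dio2 and Adrb3 were lower in these libraries in the same way, at 94.6 and 83.3 CPM in knockout 3 and 77.7 and 62.4 CPM in heterozygous 3. So was Ucp1, at 1647 CPM in knockout 3 and 2963 CPM in heterozygous 3, against 4390 to 5693 CPM in the others. Zic1 and Adipoq went the other way and were highest in knockout 3 and heterozygous 3. All 26 skeletal muscle markers also had reads in every library. Each lay lower in all 3 knockout-labelled libraries than in the other 3, as did 9.89% of all genes tested. The summed level of these markers was 4362 to 7549 CPM in knockout-labelled and 12048 to 35538 CPM in heterozygous-labelled libraries.

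Of the 45 members, 6 fell at an adjusted p below 0.05 (edgeR quasi-likelihood test, Benjamini-Hochberg adjustment over all genes tested) and 0 rose; over all genes tested 0.534% fell and 0.0526% rose, 0.586% in either direction. The median log2 fold change of the members was 0.01, with 22 of 45 below 0, beside 0.02 and 46.9% below 0 over all genes tested. The 6 were the matrix chaperones Hspd1 and Trap1, the presequence peptidase genes Pmpca, Pmpcb and Mipep, and the J-domain protein gene Dnajc28, by 1.87-fold to 2.47-fold. In 15 of the 45 members all 3 knockout-labelled libraries lay below the other 3, as in 9.89% of all genes tested, and in 0 members did they all lie above, as in 8.11% of all genes tested (18.0% in either direction). At an unadjusted p below 0.05, 15 members were lower and 0 higher by edgeR, DESeq2 and limma-voom alike. Over all genes tested by edgeR, 8.04% were lower and 4.05% higher at that threshold. In either direction it was met by 1722 of 17759 genes by DESeq2 and 1903 of 13300 by limma-voom. Neither DESeq2 nor limma-voom called a member higher. DESeq2 called 13 members lower and limma-voom 9, where they called 4.46% and 1.24% of all genes with an adjusted p lower, and 0.818% and 0.218% higher. In bulk tissue, fewer cells of a type and less RNA per cell cannot be told apart.

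Among 13 large enzymes (chaperones, peptidases and proteases, grouped by function and including the peptidase Clpp with its 272 residues), 5 fell, 12 had a log2 fold change below 0 and 11 had groups that did not overlap. Their median log2 fold change was -0.80, beside 0.02 over all genes tested. Of all genes tested 0.534% fell and 46.9% were below 0. In 9.89% all knockout-labelled libraries lay lowest, and 18% had separate groups in either direction. Among 11 small TIM and TOM subunits, with proteins of up to about 200 residues, 0 were called by edgeR, DESeq2 or limma-voom. Of these 11, 0 had an unadjusted p below 0.05 by any of these tools, and 0 had separate groups. Of all genes tested edgeR called 0.586%, and at that unadjusted p 8.04% were lower and 4.05% higher. DESeq2 called 4.46% of genes with an adjusted p lower and 0.818% higher, and limma-voom 1.24% and 0.218%. Counts of 0 among 11 genes are near these shares. The median of the small subunits was 0.09, with a range of -0.08 to 0.24. Set against the mean of the heterozygous-labelled libraries, the median large enzyme was at -0.83, -0.67 and -0.95 (log2) in knockout 1, 2 and 3, and between -0.08 and 0.07 in the single heterozygous-labelled libraries. Each heterozygous-labelled library is part of that mean, so its own values are drawn toward 0 by construction. The median small subunit was at -0.01, 0.28 and -0.01 in knockout 1, 2 and 3, and between -0.03 and 0.04 in the heterozygous-labelled libraries. Knockout 2 was thus the highest knockout-labelled library for both groups of genes.

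**Figure D1:**
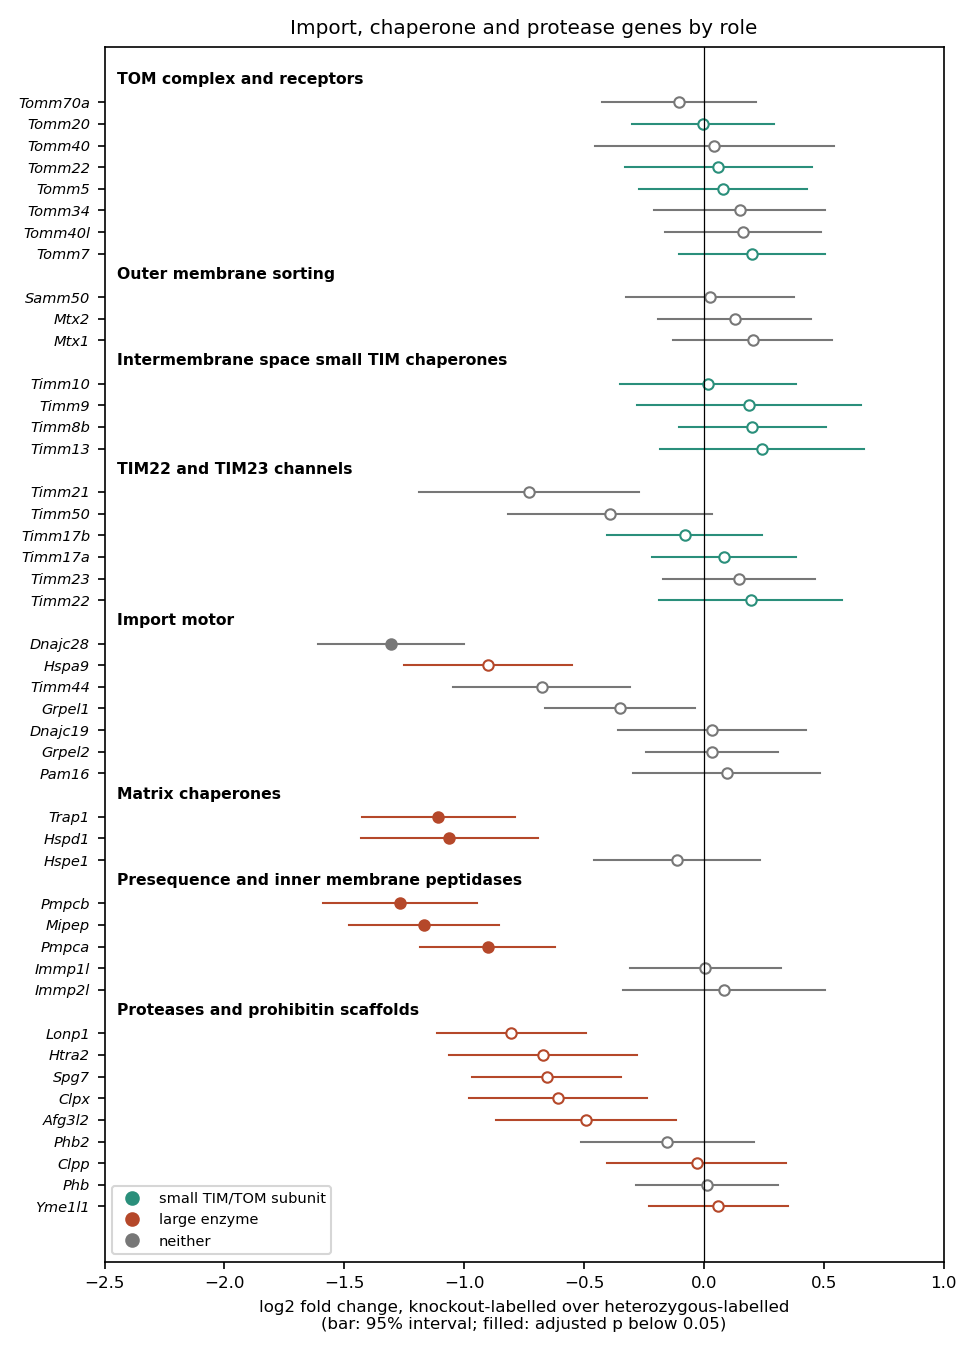
Log2 fold change of each of the 45 genes (x axis, knockout-labelled over heterozygous-labelled, 3 libraries each) with its 95% interval, grouped by role from the outer membrane at the top to the proteases at the bottom; filled points are the 6 genes with an adjusted p below 0.05. Small TIM and TOM subunits (green) lie between -0.08 and 0.24, and most large enzymes (red) lie to the left, down to -1.27.

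Titles begin with RF in 4 libraries and RE in 2, letters whose meaning is not stated. For the 13 large enzymes the median log2 ratio within RF (2 libraries a group) was -0.79, and within RE (1 library a group, no test) it was -0.86. For the 11 small subunits it was 0.16 within RF and 0.03 within RE. All 6 genes that fell were lower within both prefixes, by log2 ratios of -1.32 to -0.87 within RF and -1.24 to -0.86 within RE. In each of the 6, every knockout-labelled library lay below every heterozygous-labelled one. The sign within each prefix was thus fixed in advance and adds no support.

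Of the 3 matrix chaperone genes, 2 fell, beside 0.534% of all genes tested. Hspd1 encodes the barrel-shaped chaperonin known as Hsp60 and lies at chr1:55077835-55088243 (GRCm38, minus strand). It had 470.0, 469 and 364 CPM in knockout 1, 2 and 3, against 926, 938 and 856 CPM in heterozygous 1, 2 and 3. No knockout-labelled value came near the heterozygous-labelled range. Hspd1 fell by 1.06 on the log2 scale (SE 0.158, adjusted p = 0.0427, edgeR), to 47.9% of the heterozygous-labelled level.

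Hspe1 encodes Hsp10, the lid that closes the Hsp60 barrel. It had 209, 240.3 and 185 CPM in knockout 1, 2 and 3, against 246, 234 and 206 CPM in heterozygous 1, 2 and 3. The groups overlapped, and the log2 fold change was -0.11 (95% interval -0.46 to 0.23, adjusted p = 0.891, edgeR). Per kilobase of transcript, the ratio of barrel to lid was 0.719, 0.623 and 0.63 in knockout 1, 2 and 3, and 1.20, 1.28 and 1.33 in heterozygous 1, 2 and 3. All 3 knockout-labelled ratios were under all 3 others (exact permutation tests of 3 against 3 cannot give a two-sided p below 0.1). Partner pairs were chosen after values were seen, so this ratio and those below restate single-gene values and add no support. On this per-length scale Hspd1 averaged 179 CPM per kb and Hspe1 273 CPM per kb in knockout-labelled tissue. In heterozygous-labelled tissue the order was turned, with Hspd1 at 374 CPM per kb and Hspe1 at 295 CPM per kb. Reads of the pair are not fully separable unless strand was used in counting, because annotated first exons of Hspd1 and Hspe1 overlap on opposite strands. Processed copies add to this: the annotation names 5 pseudogenes after Hspd1 and 6 after Hspe1.

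The pair stands head to head and shares a promoter: RefSeq places a start of Hspd1 at 55087932 on the minus strand and that of Hspe1 at 55088148 on the plus strand, 216 bases apart, with a further Hspd1 start at 55088243. The stretches of this shared region shown next hold the letters GAANNTTC, an inverted repeat found in heat shock elements, and AAGGTCA, the core bound by estrogen-related receptors. Both are read on the plus strand of GRCm38.p6, in the direction of Hspe1, and the matched letters are in capitals.
Hspd1-Hspe1, chr1:55088053-55088082: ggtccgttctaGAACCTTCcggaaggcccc
Hspd1-Hspe1, chr1:55088088-55088117: tcccgtgggtgaAAGGTCAagtggcgtcat
Both stretches lie upstream of the Hspe1 start and of the Hspd1 start at 55087932, and downstream of the Hspd1 start at 55088243.

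Trap1, the Hsp90 of mitochondria, lies at chr16:4039971-4077827 (minus strand). It had 157, 173 and 192 CPM in knockout 1, 2 and 3, against 384, 394 and 347 CPM in heterozygous 1, 2 and 3. The groups were wide apart, and Trap1 fell by 1.11 on the log2 scale (SE 0.136, adjusted p = 0.0259, edgeR). Exons of Dnase1 overlap it on the other strand. Its upstream sequence is shown because it carries the same AAGGTCA core as the chaperonin pair and also TGACGTCA, the element bound by cyclic AMP response factors; it is written on the strand of the gene and ends 18 bases before the RefSeq start, outside annotated exons.
Trap1, chr16:4077828-4078060: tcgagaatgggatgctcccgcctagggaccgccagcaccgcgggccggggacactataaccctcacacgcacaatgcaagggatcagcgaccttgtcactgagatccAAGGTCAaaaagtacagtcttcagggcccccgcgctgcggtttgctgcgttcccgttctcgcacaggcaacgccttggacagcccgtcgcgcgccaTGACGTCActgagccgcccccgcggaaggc
The matches begin at bases 108 and 204 of this stretch, the TGACGTCA nearer to the start.

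Across all RefSeq promoters of this build (250 bases before to 50 after a start, 27025 genes, both strands), AAGGTCA occurred in 5.38% of genes and in 6 of the 38 members with a promoter in the table: Hspd1, Hspe1, Timm23, Timm44, Timm8b and Trap1. GAANNTTC occurred in 9.04% of genes and in Hspd1, Hspe1 and Timm9. The AAGGTCA and GAANNTTC sites shown above lie in the shared promoter, so each was counted for both Hspd1 and Hspe1. TGACGTCA occurred in 2.03% of genes and, among members, in Trap1 alone. GCGCATGC, the core bound by the factor NRF1, occurred in 3.05% of genes and in Clpx, Grpel1 and Timm13, and CCAAT in 41.1% of genes and 15 members. No motif lies inside another. Among the 6 genes that fell, 2 held AAGGTCA, 1 GAANNTTC, 1 TGACGTCA, 2 CCAAT and 0 GCGCATGC. These matches are letters in a window and say nothing of binding.

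The presequence peptidases gave 3 of the 6 genes that fell. Pmpca and Pmpcb encode the alpha and beta subunits of the processing peptidase that removes targeting sequences in the matrix, and Mipep encodes an intermediate peptidase that trims some precursors further. Pmpcb (chr5:21737141-21757152, plus strand) had 131.5, 139.6 and 125 CPM in knockout 1, 2 and 3, against 332, 343 and 278 CPM in heterozygous 1, 2 and 3. It fell by 1.27 on the log2 scale (SE 0.137, adjusted p = 0.0219, edgeR), to 41.5%, with no overlap. Its upstream sequence, on the plus strand and ending 20 bases before the RefSeq start, is shown as that of the peptidase gene with the largest change. It holds none of the 5 motifs searched, so it has no capitals.
Pmpcb, chr5:21736910-21737140: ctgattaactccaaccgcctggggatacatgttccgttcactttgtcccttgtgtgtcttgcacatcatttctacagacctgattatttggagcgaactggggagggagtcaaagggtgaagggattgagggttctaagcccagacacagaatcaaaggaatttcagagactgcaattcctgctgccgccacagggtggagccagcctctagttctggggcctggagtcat

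Pmpca (chr2:26389339-26397122, plus strand) had 98.5, 97.1 and 87.4 CPM in knockout 1, 2 and 3, against 171, 188 and 170.1 CPM in heterozygous 1, 2 and 3. It fell by 0.90 on the log2 scale (SE 0.12, adjusted p = 0.0349, edgeR), and its exons overlap Inpp5e on the other strand. The alpha to beta ratio, per kilobase, was 0.386, 0.358 and 0.361 in knockout 1, 2 and 3, and 0.265, 0.282 and 0.315 in heterozygous 1, 2 and 3. The ratio was higher in all 3 knockout-labelled libraries, so the beta transcript was the lower of the partners relative to heterozygous-labelled tissue.

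Mipep (chr14:60784573-60905478, plus strand) had 29.4, 31.1 and 37.7 CPM in knockout 1, 2 and 3, against 73.3, 74.2 and 73.0 CPM in heterozygous 1, 2 and 3. The heterozygous-labelled values were nearly equal, and Mipep fell by 1.17 on the log2 scale (SE 0.134, adjusted p = 0.0248, edgeR). The antisense gene Mipepos overlaps its exons. The inner membrane peptidase genes did not share this: Immp1l averaged 29.2 ± 3.27 CPM in knockout-labelled and 29.1 ± 1.14 CPM in heterozygous-labelled libraries, and Immp2l 43.8 ± 8.12 and 41.3 ± 5.69 CPM (SD, n = 3 each). Their log2 fold changes were 0.01 and 0.08, with 95% intervals of -0.31 to 0.32 and -0.34 to 0.51. These peptidases act on few substrates in the intermembrane space, and both are small proteins of 166 and 175 residues.

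**Figure D2:**
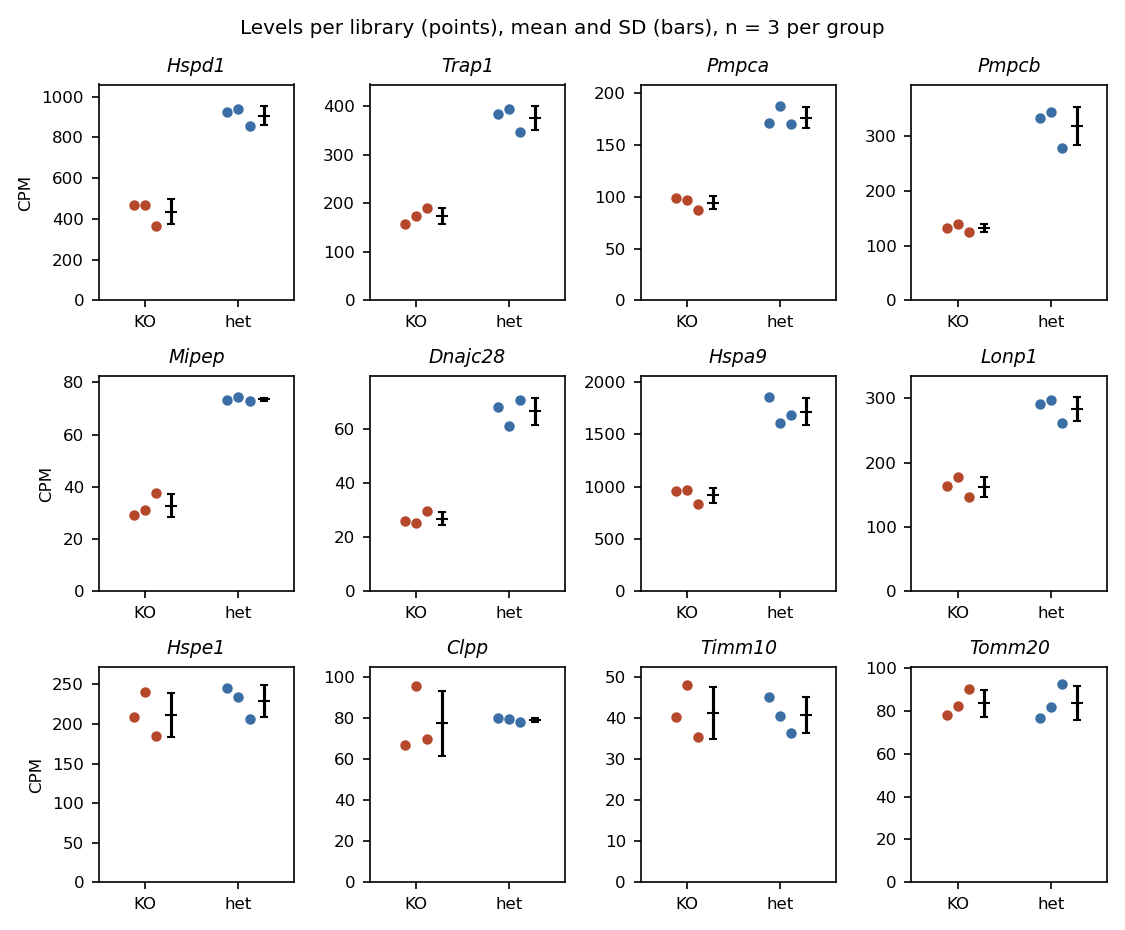
Level of 12 genes in each library (points, CPM on the y axis from 0), with the mean and SD beside them, knockout-labelled (KO) left of heterozygous-labelled (het), n = 3 each. The top 8 panels show genes with groups that do not overlap, and the bottom row shows Hspe1, Clpp, Timm10 and Tomm20, whose groups overlap.

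In the import motor 1 of 7 genes passed the test, and 4 had separate groups, with the knockout-labelled libraries lowest. Of all genes tested 0.534% fell and 9.89% had all knockout-labelled libraries lowest. Dnajc28, a J-domain protein gene grouped here by its domain and with no settled place in the motor, had 25.9, 25.3 and 29.7 CPM in knockout 1, 2 and 3, against 68.1, 61.2 and 70.7 CPM in heterozygous 1, 2 and 3. It fell by 1.31 on the log2 scale (SE 0.13, adjusted p = 0.0185, edgeR), the largest change among the members, and lies at chr16:91614254-91619026 on the minus strand. Per kilobase it was the lowest of the 45 genes in knockout-labelled tissue, at 7.63 CPM per kb, and stood at 18.9 CPM per kb, place 37, in heterozygous-labelled tissue.

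Hspa9, the matrix Hsp70 that pulls precursors in, was the most abundant member per length in both groups, at 301 and 562 CPM per kb. It had 956, 965 and 835 CPM in knockout 1, 2 and 3, against 1856, 1609 and 1679.8 CPM in heterozygous 1, 2 and 3. The groups were well apart, but the gene missed the threshold (log2 fold change -0.90, SE 0.15, adjusted p = 0.0581, edgeR), with adjusted p from 7.69e-07 by DESeq2 to 0.225 over the alternatives. Timm44, which anchors Hspa9 at the pore, had 87.8, 119 and 98.9 CPM in knockout 1, 2 and 3, against 172, 143 and 174 CPM in heterozygous 1, 2 and 3. Its log2 fold change was -0.68 (adjusted p = 0.0924, edgeR; 0.0113, DESeq2) and its groups did not overlap.

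Grpel1 and Grpel2 encode nucleotide exchange factors that reset Hspa9, and neither passed the test. Grpel1 stood at 138, 168 and 149 CPM in knockout 1, 2 and 3, against 205, 178 and 197 CPM in heterozygous 1, 2 and 3, with a log2 fold change of -0.35 (adjusted p = 0.338, edgeR). Its paralog Grpel2 averaged 32.0 ± 1.68 and 31.3 ± 1.25 CPM (log2 fold change 0.03, 95% interval -0.24 to 0.31). The J-type regulators at the pore, Dnajc19 and Pam16, had log2 fold changes of 0.03 and 0.10, with overlapping groups. The ratio of Hspa9 to Grpel2, per kilobase, was 38.6, 38.5 and 36.8 in knockout 1, 2 and 3, and 75.4, 70.8 and 71.4 in heterozygous 1, 2 and 3.

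Of 6 genes of the inner membrane pores 0 passed the test by edgeR, and 1, Timm21, had separate groups and an unadjusted p below 0.05. Of all genes tested 0.586% passed and 9.89% had all knockout-labelled libraries lowest, while 8.04% were lower at that unadjusted threshold. Timm21, which links the TIM23 pore to the outer membrane and the respiratory chain, had 31.6, 39.9 and 23.7 CPM in knockout 1, 2 and 3, against 54.4, 48.7 and 54.8 CPM in heterozygous 1, 2 and 3. It varied within the knockout-labelled libraries and did not pass (log2 fold change -0.73, SE 0.196, adjusted p = 0.144, edgeR), while DESeq2 called it lower (adjusted p = 0.0396). For Timm50, the receptor of the TIM23 pore, the groups overlapped (log2 fold change -0.39; adjusted p = 0.473, edgeR). The pore gene Timm23 averaged 119 ± 16.3 and 107 ± 1.59 CPM (log2 fold change 0.15), and its partner genes Timm17a and Timm17b had log2 fold changes of 0.09 and -0.08. Timm22, the pore for carrier proteins, was the highest of this group at 0.19 (95% interval -0.19 to 0.58).

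Of the proteases, 5 of 7 had groups that did not overlap and 0 passed by edgeR, while 4 passed by DESeq2 (Lonp1, Spg7, Clpx and Htra2) and 2 by limma-voom (Lonp1 and Spg7); of all genes these tools called 4.46% and 1.24% lower. Over all genes tested 9.89% had all knockout-labelled libraries lowest, and edgeR called 0.534% lower. Lonp1, the main soluble protease of the matrix, had 163, 178 and 147 CPM in knockout 1, 2 and 3, against 291, 298 and 262 CPM in heterozygous 1, 2 and 3. Its log2 fold change was -0.80 (SE 0.133, adjusted p = 0.0581, edgeR). The values lie well apart, as they do for Hspa9.

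Clpx is the ATPase that unfolds substrates for the peptidase Clpp. Clpx had 112, 121 and 86.8 CPM in knockout 1, 2 and 3, against 158, 178 and 153 CPM in heterozygous 1, 2 and 3 (log2 fold change -0.61, adjusted p = 0.13, edgeR). Clpp averaged 77.6 ± 15.8 and 79.3 ± 1.07 CPM (log2 fold change -0.03, 95% interval -0.40 to 0.34). The unfoldase to peptidase ratio, per kilobase, was 0.571, 0.431 and 0.422 in knockout 1, 2 and 3, and 0.673, 0.761 and 0.666 in heterozygous 1, 2 and 3, with no overlap.

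Spg7 and Afg3l2 form the protease facing the matrix, and Yme1l1 faces the intermembrane space. Spg7 had 67.3, 82.9 and 82.7 CPM in knockout 1, 2 and 3, against 126, 127 and 114 CPM in heterozygous 1, 2 and 3 (log2 fold change -0.66, adjusted p = 0.0789, edgeR). Afg3l2 had 159, 199.7 and 212 CPM in knockout 1, 2 and 3, against 259.8, 241 and 301 CPM in heterozygous 1, 2 and 3 (log2 fold change -0.49, adjusted p = 0.242, edgeR). In both, all knockout-labelled libraries were the lower ones. Yme1l1, a protein of 715 residues beside 781 in Spg7 and 802 in Afg3l2, averaged 151 ± 9.59 and 144 ± 11.2 CPM (log2 fold change 0.06, 95% interval -0.23 to 0.35).

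Htra2, a serine protease of the intermembrane space, had 19.6, 24.2 and 17.0 CPM in knockout 1, 2 and 3, against 30.1, 35.4 and 31.4 CPM in heterozygous 1, 2 and 3 (log2 fold change -0.67, adjusted p = 0.112, edgeR). Its low level and overlap with exons of Loxl3 and Aup1 on the other strand limit this value. The prohibitins Phb and Phb2, ring-forming scaffolds around the AAA proteases, had log2 fold changes of 0.01 and -0.15, and their groups overlapped.

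**Figure D3:**
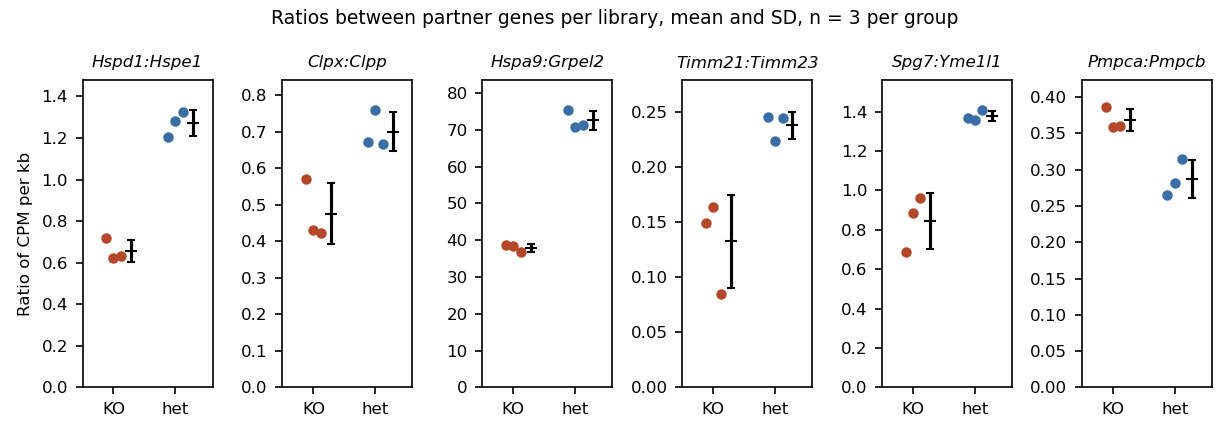
Ratio of CPM per kilobase between partner genes in each library (points), with mean and SD, knockout-labelled (KO) left of heterozygous-labelled (het), n = 3 each; each y axis starts at 0. The ratio of Hspd1 to Hspe1 is 0.657 ± 0.0533 in KO and 1.27 ± 0.0622 in het libraries, and no pair shown overlaps between groups. The pairs were chosen after values were seen, so their separation adds no support.

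At the outer membrane 0 of 11 genes passed by edgeR, and all 11 had overlapping groups. Of all genes tested 0.586% passed and 18% had separate groups, so most genes overlapped as these did. The channel Tomm40 averaged 68.7 ± 21.4 and 66.6 ± 1.57 CPM (log2 fold change 0.04), with knockout 2, at 92.8 CPM, far above knockout 1 and 3, at 61.4 and 51.8 CPM. The presequence receptor Tomm20 had 77.8, 82.3 and 89.9 CPM in knockout 1, 2 and 3, against 76.5, 81.8 and 92.2 CPM in heterozygous 1, 2 and 3, a log2 fold change under 0.01 in size (95% interval -0.30 to 0.29). The other receptors, Tomm22 and Tomm70a, had log2 fold changes of 0.06 and -0.10, the lowest of the TOM genes being Tomm70a. The small stabilising subunits Tomm5 and Tomm7 were at 0.08 and 0.20, the channel paralog Tomm40l at 0.16 and the cytosolic co-chaperone Tomm34 at 0.15. In the sorting machinery for outer membrane barrel proteins, Samm50 was at 0.03, Mtx2 at 0.13 and Mtx1 at 0.20.

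The small TIM chaperones, which carry hydrophobic precursors across the intermembrane space, were all close to their heterozygous-labelled level. Timm10 had 40.3, 48.0 and 35.3 CPM in knockout 1, 2 and 3, against 45.2, 40.6 and 36.4 CPM in heterozygous 1, 2 and 3. Its partner Timm9 had a log2 fold change of 0.19, beside 0.02 for Timm10. Timm8b and Timm13, the other pair, were at 0.20 and 0.24, and Timm13 was the highest of all members (95% interval -0.18 to 0.67, adjusted p = 0.737, edgeR). Knockout 2 had the highest value of the 6 libraries in all 4 genes, and the intervals leave room for changes of either sign.

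Coding length and the change ran together within the system more than over all genes. Across the 45 members the rank correlation of log2 fold change with the longest annotated coding sequence was -0.627, and across the 12298 tested genes with a coding length it was -0.154. Members share libraries and a compartment, and genes are not independent replicates, so these are descriptions. Of 16 members with up to 200 residues, 0 fell, and of 12 with up to 400 residues, 0 fell. Of 8 with up to 600 residues, 4 fell, and of 9 with up to 1000 residues, 2 fell. Over all tested genes the share that fell in these classes was 0.0685%, 0.453%, 1.06% and 0.642%, and the median log2 fold change was 0.11, 0.05, 0.01 and -0.01. With transcript length in place of coding length the rank correlation was -0.301 across the 45 members and -0.147 over all genes. With the number of exons it was -0.496 and -0.099. Among the 21 members with at least 300 residues it was -0.314 with coding length, 0.0416 with transcript length and -0.277 with exons. The members of over 400 residues whose groups overlapped were Yme1l1, Samm50, Mtx1 and Tomm70a, and the smallest with separate groups were Grpel1 (217 residues) and Timm21 (244 residues).

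**Figure D4:**
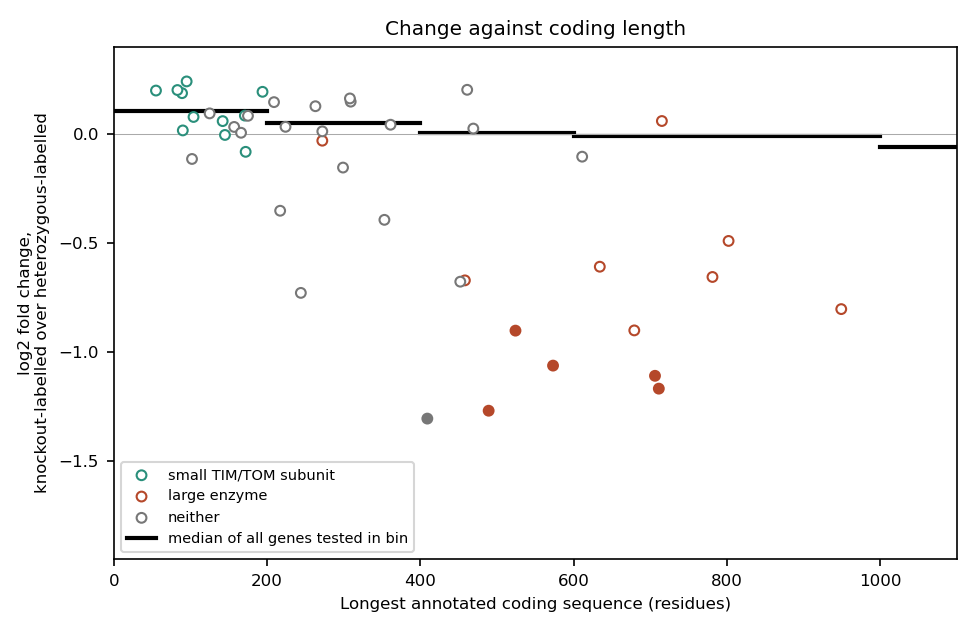
Log2 fold change of each member (y axis, knockout-labelled over heterozygous-labelled) against its longest annotated coding sequence in residues (x axis); filled points are the 6 genes that fell, and black lines give the median of all genes tested in each length class. The class medians of all genes run from 0.11 to -0.06, while members above 400 residues reach -1.31.

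Genes of the same system outside the list of members were counted the same way. Of 30 further import, chaperone and protease genes, 28 were in the table and 26 were tested, of which 3 fell, 0 rose, 9 had all knockout-labelled libraries lowest and 1, Dnajc11, had them all highest. Over all genes tested 0.534% fell, 0.0526% rose, 9.89% had them lowest and 8.11% highest. Their median log2 fold change was -0.18. Agk, a lipid kinase that is also a subunit of the TIM22 pore, had 7.57, 7.76 and 6.74 CPM in knockout 1, 2 and 3, against 18.7, 17.0 and 19.7 CPM in heterozygous 1, 2 and 3 (log2 fold change -1.33, adjusted p = 0.0248, edgeR). Pitrm1, which degrades the peptides cut from precursors, fell by 0.95 (adjusted p = 0.0388) and Afg3l1, a paralog of Afg3l2 whose reads may be shared with it, by 0.79 (adjusted p = 0.0475, both edgeR). DESeq2 called 7 and limma-voom 4 of these genes lower, with Dnaja3, Xpnpep3, Clpb and Lactb added by DESeq2, and over all genes 4.46% and 1.24%.

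Chaperones and proteases of mitochondria can be induced by a stress response that runs through the transcription factors Atf4, Atf5 and Ddit3. Of 14 genes of that response, 12 were tested and 0 passed by edgeR or, at the same threshold, limma-voom; DESeq2 called Mthfd2 higher, as it did 0.818% of all genes. At an unadjusted p below 0.05 edgeR had 3 higher and 0 lower, against 4.05% and 8.04% of all genes tested, and the median log2 fold change was 0.37. Trib3 and Mthfd2, with the smallest p, had log2 fold changes of 0.90 and 1.58 (adjusted p = 0.213 and 0.22).

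Skeletal muscle markers were lower in every knockout-labelled library, with all 26 at an unadjusted p below 0.05 by edgeR, beside 8.04% of all genes. By adjusted p, 0 of 26 passed by edgeR (lowest adjusted p = 0.0715), 0 by limma-voom and 26 by DESeq2. Of all genes edgeR called 0.534% lower, limma-voom 1.24% and DESeq2 4.46%. The 13 large enzymes summed to 2591, 2728 and 2396 CPM in knockout 1, 2 and 3, against 4838, 4657 and 4475 CPM in heterozygous 1, 2 and 3. The 26 muscle markers summed to 7549, 4446 and 4362 CPM in knockout 1, 2 and 3, against 12048, 27349 and 35538 CPM in heterozygous 1, 2 and 3. Within the heterozygous-labelled libraries both sums ran in opposite order. Within the knockout-labelled libraries they ran in neither the same nor the opposite order. Muscle expresses these enzymes too, and the part of muscle RNA in the pooled difference was not tested. The 11 small subunits summed to 698, 883 and 765 CPM in knockout 1, 2 and 3, against 732, 701 and 733 CPM in heterozygous 1, 2 and 3. Of 5 macrophage, 5 endothelial and 5 fibroblast markers tested, 0 passed and 0 had an unadjusted p below 0.05 by edgeR, DESeq2 or limma-voom. Over all genes tested edgeR called 0.586%, and at that unadjusted p 8.04% were lower and 4.05% higher. For so few markers, counts of 0 are near these shares and do not show that these cell types were unchanged.

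**Figure D5:**
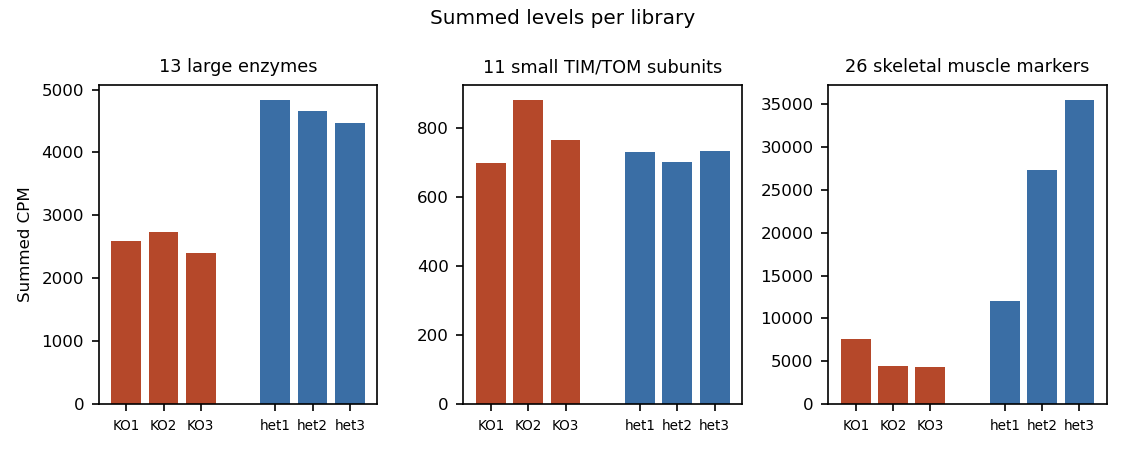
Summed CPM (y axis, from 0) of the large enzymes, the small TIM and TOM subunits and the skeletal muscle markers in each library, knockout-labelled (KO, left) and heterozygous-labelled (het, right). The enzyme sums are 2396 to 2728 in KO and 4475 to 4838 in het libraries, while the muscle sums spread from 12048 to 35538 among het libraries.

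The sizes of these changes rested less on single libraries than the calls did. Without knockout 1, knockout 2 or heterozygous 2, 0 of the 6 genes passed by edgeR, as did 0 of all genes tested. At an unadjusted p below 0.05, 13, 16 and 15 members were then lower. In either direction, 1450 of 13433, 1393 of 13467 and 1257 of 13527 genes tested met that threshold. Without knockout 1, 1 small subunit, Timm13, was higher at that threshold. Without heterozygous 3, Pmpcb alone passed. With the title prefix in the fit 10 members fell, as did 1.78% of all genes, and at an adjusted p of 0.1 also 10, with 3.31% of all genes. Over these and the 2 remaining omissions the median of the large enzymes stayed between -0.87 and -0.74.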

How the data were processed

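RNA of pulverised brown adipose tissue from 3 mice per genotype was sequenced, per the labels' protocols. The authors deposited raw read counts per gene symbol; per the submitters' processing notes the tools were HTSeq, edgeR, SAMtools 1.9, STAR 2.7.2b, Bowtie2 2.3.4.3 and Trim Galore, on mm10, with no roles given. The sources used here give neither the annotation nor the strand setting. Groups follow the genotype labels; replicate numbers follow accession order and pair nothing. The 5 closing lines that name no gene (41.7% to 56.1% of column totals, mostly multiply aligned reads and reads outside features) were left out. Every pair of replicates differed by more than sampling noise (39.3 to 126 as chi-square divided by its degrees of freedom); separate mice are stated per genotype only.

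The count test was that of edgeR 4.0.16 under R 4.3.3 (scaling by TMM, filterByExpr with minimum count 10 and total 15, robust quasi-likelihood F test on genotype, Benjamini-Hochberg adjustment over 13300 genes, threshold 0.05; biological coefficient of variation 24.7%). SE is the log2 fold change over the root of F, and intervals are 95%. Within-prefix and per-library log2 ratios add 0.5 CPM. The fit was tested on simulated data. Alternatives were RLE or no scaling, other filters, DESeq2 1.42.0, limma-voom (limma 3.58.1), no robust estimation, a threshold of 0.1, omissions of single libraries, the title prefix, RF-titled libraries alone and muscle genes left out of library sizes.

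Members, role groups, lists and the rule for named genes (called members, then the smallest p up to 14, and the extremes of each role) were chosen with earlier results of these data known, so no list is given a p. Motifs and partner pairs were chosen after values were seen, so ratios with separate groups restate the values of single genes. Coordinates and lengths come from GENCODE M21 on GRCm38, which mm10 names; levels per kilobase use the transcript with the longest coding sequence. Promoters are RefSeq's on GRCm38.p6, matched by symbol for 38 of 45 members.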

Additional observations from a re-analysis of the deposited data

How the results depend on the processing

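The count of 6 members that fell (0.534% of all genes) was 13 by DESeq2 (4.46%), 10 with the prefix added to the fit (1.78%) and 10 at an adjusted p of 0.1 (3.31%), and 0 to 6 when single libraries were left out (1 without heterozygous 3). All 6 were also called by RLE scaling, library size only, no filter, a mean CPM of at least 1, DESeq2, limma-voom, no robust estimation, RF-titled libraries alone, the prefix covariate and muscle genes left out of library sizes. No alternative called a member higher. Over the alternatives the median of the large enzymes ran from -0.87 to -0.74 and that of the small subunits from -0.01 to 0.18. Among single genes the sign of 44 values turned, all in genes that never passed. By library size only these were Dnajc19 (-0.028), Grpel2 (-0.018), Immp1l (-0.0475), Phb (-0.0409), Samm50 (-0.0291), Timm10 (-0.0274). In RF-titled libraries alone they were Clpp (0.0265), Immp2l (-0.0984), Phb (-0.00558), Tomm20 (0.014). By limma-voom they were Immp1l (-0.00669), Immp2l (-0.0475), Phb (-0.0139), Tomm20 (0.0047). Also, Tomm20 was at 2.83e-05 by DESeq2, 0.00511 with no filter, 0.00090 with the prefix. Over the 6 omissions of 1 library, the genes whose sign turned ran as follows: Clpp -0.208 to 0.0656, Dnajc19 -0.0583 to 0.159, Immp1l -0.0691 to 0.0904, Immp2l -0.0147 to 0.232, Pam16 -0.056 to 0.186, Phb -0.0545 to 0.0961, Samm50 -0.0604 to 0.128, Timm10 -0.105 to 0.108, Timm17a -0.0079 to 0.13, Timm9 -0.0283 to 0.301, Tomm20 -0.0696 to 0.0751, Tomm22 -0.13 to 0.149, Tomm40 -0.234 to 0.201, Tomm5 -0.0231 to 0.193, Yme1l1 -0.00131 to 0.101. The cause was not tested. No paired analysis was possible because the titles give the groups no shared replicate numbers. With 3 libraries a group, groups were too small for a search for outlying samples.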
